A study of Mus musculus with 21 samples.

Results

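Oocytes and granulosa cells of one treatment group, Aged + LRP1high, were compared with each other. The comparison rests on all 3 oocyte libraries and all 3 granulosa libraries that carry this label, 6 of the 21 libraries of the series. The mice were ICR females 18 months old, and every one of them had received human umbilical cord mesenchymal stem cells under the ovarian capsule 3 weeks before collection. These stem cells had been sorted for high surface LRP1, a large endocytic receptor. The study used the oocyte and granulosa transcriptomes to ask how the transplanted cells act on the aged ovary, and the comparison between the 2 cell types describes how their RNA differed after the same treatment. Per the labels the RNA was polyadenylated RNA from ovaries, and the replicates are numbered biological replicates. Oocytes were freed by puncture of follicles, and granulosa cells were stripped from cumulus-oocyte complexes with hyaluronidase. How many animals or cells went into a library is not given in the sources used here, so p-values measure the spread between libraries, whatever its source. Fewer cells and less RNA per cell cannot be told apart in such bulk samples.

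An oocyte and its granulosa cells form one working unit. The oocyte stores messenger RNA and protein for meiosis and for the first divisions of the embryo, builds the zona pellucida around itself, and secretes the growth factors GDF9 and BMP15, which act on serine/threonine kinase receptors of the surrounding cells. Granulosa cells carry the receptor for follicle-stimulating hormone, make inhibins, activins, estrogen and C-type natriuretic peptide, and supply the oocyte with pyruvate, cholesterol and amino acids through thin processes that end in gap junctions.

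All values are FPKM, which corrects for gene length and library size, so levels of different genes can be compared within a library. Sequencing depth was 3.15, 2.29 and 2.72 gigabases of aligned sequence in oocyte replicates 1, 2 and 3 and 0.567, 1.28 and 1.14 in the granulosa replicates. For a gene 1 kilobase long, 1 read of 150 bases corresponded to 0.0476 to 0.0656 FPKM in oocyte and 0.117 to 0.264 FPKM in granulosa libraries, so low values in granulosa cells rest on few reads. Genes with at least 1 FPKM numbered 4525 to 11026 in oocyte and 4842 to 21463 in granulosa libraries. A family of 10 predicted genes, led by Gm10800, took 0.04997 to 1.73% of TPM in the oocyte libraries and 82.5, 96.4 and 68.5% in granulosa replicates 1, 2 and 3.

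The label of the oocyte libraries was borne out by its markers and that of the granulosa libraries was not borne out in every replicate. The 10 oocyte markers summed to 3507 to 9246 FPKM in the oocyte libraries and to 38.0, 5.46 and 8.19 FPKM in the granulosa libraries. The 12 granulosa and cumulus markers summed to 32.7, 30.5 and 1.25 FPKM in the oocyte libraries and to 65.8, 5.62 and 579 FPKM in the granulosa libraries. Granulosa replicate 3 carried Inha, the inhibin alpha subunit, at 263 FPKM, Fshr, the receptor for follicle-stimulating hormone, at 27.2 and Foxl2, the factor that maintains granulosa identity, at 25.8. The library labelled granulosa replicate 1 had Inha at 0.555, Fshr at 1.48 and Foxl2 at 4.43 FPKM. Its luteal markers summed to 452 FPKM, against 7.82 and 96.6 FPKM in replicates 2 and 3, and its theca and stromal markers to 134 FPKM, against 3.44 and 73.8 FPKM. The library labelled granulosa replicate 2 had none of the 12 granulosa markers above 1.87 FPKM, the level of Inhbb. Amh, made by granulosa cells of growing follicles, was listed at 0 in granulosa replicates 1 and 2 and at 0.402 FPKM in replicate 3. An exact permutation test of 3 against 3 libraries cannot give a p below 0.1, and this test gave p = 0.1 for the summed oocyte markers, which did not overlap between the cell types, and p = 0.4 for the summed granulosa markers, which did. Values are therefore given for each granulosa library.

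**Figure D1:**
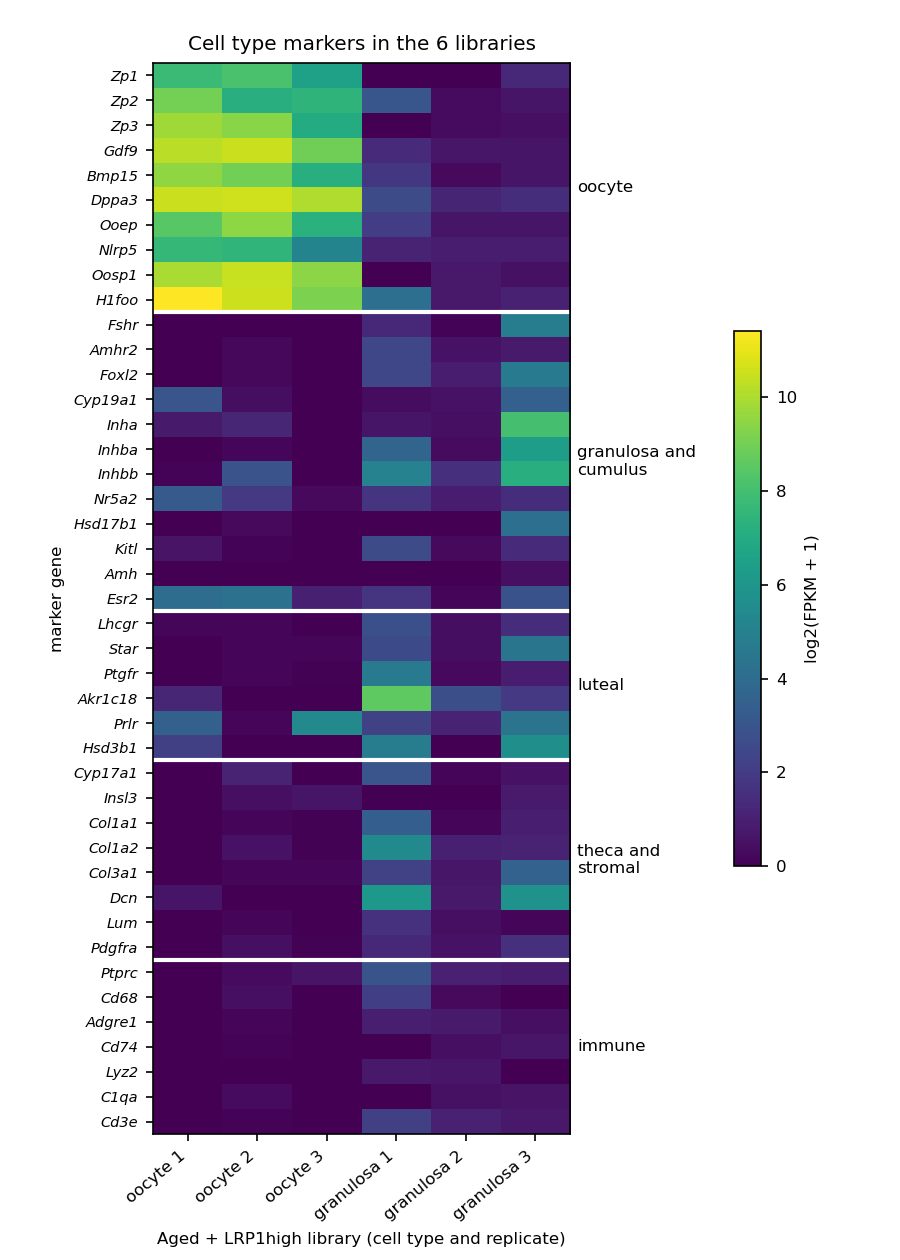
Level of 43 cell type markers (rows) in the 6 Aged + LRP1high libraries (columns), as the colour of log2(FPKM + 1). The 10 oocyte markers are high in the 3 oocyte libraries, while granulosa markers such as Inha (263 FPKM) appear in granulosa replicate 3 and luteal markers such as Akr1c18 (386 FPKM) in granulosa replicate 1.

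Summed FPKM of markers of other ovarian cells were low, but not in every library when set beside the granulosa markers. In granulosa replicate 2 the immune markers summed to 4.51 FPKM and the granulosa and cumulus markers to 5.62 FPKM. On TPM rescaled without the family led by Gm10800, immune markers summed to 97.2, 116 and 13.7 in granulosa replicates 1, 2 and 3. Granulosa and cumulus markers summed to 421, 145 and 2562 on that scale. They summed to 84.2, 77.0 and 3.91 in oocyte replicates 1, 2 and 3, so the cell types did not overlap there. The 7 immune markers summed to 0.0194 to 1.16 FPKM in oocyte and 3.09 to 15.2 FPKM in granulosa libraries, the 5 red blood cell markers to 0 to 0.677 and 0.930 to 7.18 FPKM, and the 4 endothelial markers to 1.01 to 10.1 and 2.30 to 14.1 FPKM. The 6 surface epithelium and oviduct markers summed to 0.114 to 1.90 FPKM in oocytes and reached 36.7 FPKM in granulosa replicate 3, where Krt18, a keratin, had 18.02 and Epcam, an epithelial adhesion molecule, 15.8 FPKM. The signal in genes that ovarian cells are not known to use also differed between the libraries. Over 1466 olfactory and vomeronasal receptor genes, a set chosen after values had been seen, the median was 0, 0.0714 and 0 FPKM in the oocyte libraries and 0.746, 0.274 and 0.348 FPKM in the granulosa libraries. Of 21876 nuclear coding genes, 11160, 8901 and 5928 lay above the 95th percentile of these receptor genes in the oocyte libraries, and 3637, 4090 and 6827 did in the granulosa libraries. In granulosa replicates 1, 2 and 3, only 1, 2 and 0 of the 7 immune markers lay above it. For the 12 granulosa and cumulus markers these counts were 5, 3 and 10, so most markers of either list in replicate 2 were within this background. The part of this background in any difference below was not tested.

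Of 13047 genes with a mean of at least 1 FPKM over the 6 libraries, 1596 were called higher in oocytes (12.2%) and 61 higher in granulosa cells (0.468%) by limma, at a fold over 1.5 and an adjusted p under 0.05. Adjusted p-values of single genes are from this limma fit over all 13047 genes, differences are log2 values with their standard error (SE), and a call means that both thresholds were passed. At an unadjusted limma p under 0.05 and the same fold, 2907 genes were higher in oocytes and 262 in granulosa cells. The median difference of all genes, oocyte minus granulosa on the log2(FPKM + 1) scale, was 0.61. The split between the directions depended on the scale. On TPM rescaled after the 10 family members were removed, 603 genes (4.63%) were higher in oocytes and 518 (3.97%) higher in granulosa cells, with a median difference of -0.64. After quantile normalization of FPKM, 662 (5.07%) and 272 (2.08%) were called, with a median of -0.08. Calls in the same direction on all 3 scales were made for 507 genes higher in oocytes (3.89%) and 51 higher in granulosa cells (0.391%). Of these, 434 and 12 were nuclear coding genes outside the repeat-like family. Without the library labelled granulosa replicate 1, 841 genes were higher in oocytes and 20 in granulosa cells, and without replicate 2 these counts were 727 and 76. Without oocyte replicate 1 they were 975 and 36, and without oocyte replicate 3, 2780 and 59. With granulosa replicate 3 alone against the 3 oocyte libraries, a fit that assumes the lone library to vary like the oocyte libraries, no gene passed limma's adjusted threshold, and 1021 and 411 had an unadjusted p under 0.05.

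**Figure D2:**
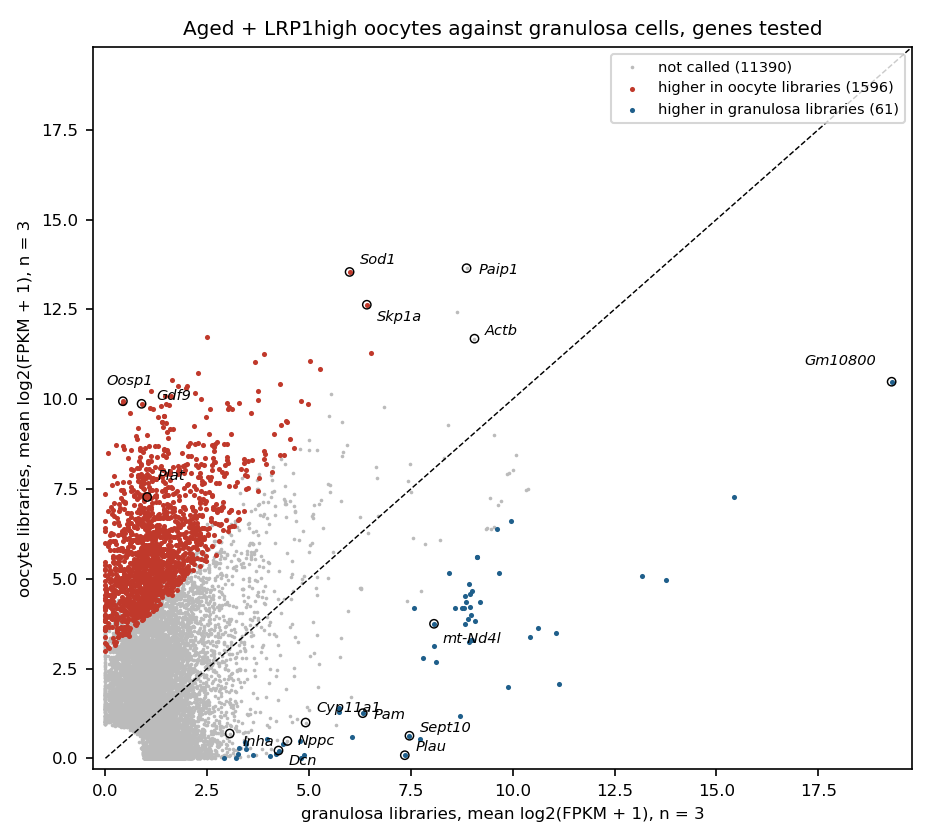
Mean log2(FPKM + 1) of the 3 oocyte libraries (vertical) against that of the 3 granulosa libraries (horizontal) for the 13047 genes tested, with genes called higher in oocytes in red, genes called higher in granulosa cells in blue and the line of equality dashed. The 1596 red points lie above the line toward the left, and the 61 blue points below it include Gm10800 and genes of the mitochondrial genome.

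Genes of oocyte function were higher in oocytes by large margins. Of 100 genes in 8 lists of oocyte functions, 94 passed the filter on low values. Of these 59 were called higher in oocytes and 0 higher in granulosa cells, 44 of them on all 3 scales. Leaving out 1 library at a time gave 50 to 67 calls, the lowest without granulosa replicate 2. The lists were chosen with results of these data known, and the counts describe them against the 12.2% of all genes.

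The zona pellucida is the glycoprotein coat that sperm bind. Zp3, which encodes a glycoprotein of this coat, had 876, 667 and 128 FPKM in the oocyte and 0, 0.251 and 0.404 in the granulosa libraries. The groups did not overlap, and the difference was 8.45 ± 1.00 (SE, adjusted p = 7.12e-05). Zp1, which cross-links the zona filaments, had 219, 277 and 90.2 FPKM in the oocyte and 0, 0 and 1.44 in the granulosa libraries, and Zp2 had 524, 143 and 169 FPKM in the oocyte and 7.18, 0.2595 and 0.546 in the granulosa libraries. All 6 members of the list were called higher in oocytes on FPKM, against 12.2% of all genes. On TPM without the repeat-like family 4 were, against 4.63%, and after quantile normalization 5 were, against 5.07%. Izumo1r, the oocyte receptor (Juno) for the sperm protein IZUMO1, differed by 5.72 ± 1.03 (SE, adjusted p = 0.00113), and Astl, the protease ovastacin that trims ZP2 after fertilization, by 4.51 ± 0.97 (SE, adjusted p = 0.00399). Astl was not called on TPM without the repeat-like family (adjusted p = 0.0685, limma). Cd9, a tetraspanin needed for fusion with sperm, overlapped between the groups, since oocyte replicate 3 had 3.55 and granulosa replicate 3 3.57 FPKM. Its adjusted p of 0.043 rose above the threshold without oocyte replicate 1 or 2 or granulosa replicate 1 or 2. Cd9 was called on neither other scale.

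The subcortical maternal complex lies under the oocyte membrane and is needed for the first embryonic divisions. All 8 members were called higher in oocytes on FPKM, against 12.2% of all genes. On each of the other scales 7 were, and Nlrp2 was not. Zbed3 had 2139, 1202 and 782 FPKM in the oocyte and 10.8, 0.553 and 2.38 in the granulosa libraries, a difference of 8.32 ± 1.01 (SE, adjusted p = 8.4e-05). Tle6 had 409, 886 and 347 FPKM in the oocyte and 1.35, 0.636 and 0.206 in the granulosa libraries, and Nlrp5 (MATER), the first member described, 192, 178 and 34.7 FPKM in the oocyte and 1.18, 0.893 and 0.847 in the granulosa libraries. The groups did not overlap for any of the 8, while 18.8% of all genes tested were higher in every oocyte than in every granulosa library. Levels varied within oocytes: Khdc3 (FILIA) ran from 434 in replicate 1 to 7.61 FPKM in replicate 3, and Nlrp2 from 50.02 to 5.06 FPKM. Khdc3 lost its call without granulosa replicate 2, and Nlrp2 kept its call only without oocyte replicate 2 or 3.

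Storage and timed decay of maternal RNA were covered by 18 genes. Of these, 11 were called higher in oocytes, against 12.2% of all genes, and 0 higher in granulosa cells. The count higher in oocytes was 7 on TPM without the repeat-like family, against 4.63% of all genes. After quantile normalization it was 10, against 5.07%. Btg4, the adaptor that brings the CCR4-NOT deadenylase to maternal transcripts, had 998, 2346 and 719 FPKM in the oocyte and 3.39, 0.371 and 0.667 in the granulosa libraries, a difference of 9.11 ± 0.97 (SE, adjusted p = 6.17e-05). Zar1l, Zar1 and Ybx2, proteins that hold maternal RNA, differed by 8.42, 7.12 and 6.53, and Cpeb1, which controls poly(A) tails, by 7.84 on the log2 scale. Paip1, a partner of the poly(A)-binding protein, was among the most abundant transcripts of both cell types, with 8411, 14483 and 17249 FPKM in the oocyte and 1045, 11.4 and 7832 in the granulosa libraries. Granulosa replicate 3 approached the oocyte libraries for Paip1, replicate 2 lay far below, and the difference of 4.78 did not pass (adjusted p = 0.0575). Lsm14b, an RNA-binding protein of oocyte storage particles, had 1069, 3382 and 3984 FPKM in the oocyte and 6.798, 2.75 and 113 in the granulosa libraries, so the highest granulosa library was again replicate 3. Zfp36l2, Ddx6 and Tut4 had negative differences of -1.10, -0.38 and -1.42, and none of them passed the test.

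Meiotic cell cycle genes were called for 9 of 19 members, all higher in oocytes, against 12.2% of all genes. The count was 4 on TPM without the repeat-like family (Pttg1, Mos, Ccnb2 and Bub1b), against 4.63% of all genes. After quantile normalization it was 7, against 5.07%. Pttg1 (securin), which holds separase until anaphase, had 3796, 1346 and 627 FPKM in the oocyte and 16.8, 0.655 and 0 in the granulosa libraries and differed by 8.90 ± 1.15 (SE, adjusted p = 0.000107). Mos, the kinase that keeps the egg arrested in metaphase, had 136, 96.1 and 71.7 FPKM in the oocyte and 2.09, 0.555 and 0.288 in the granulosa libraries. The cyclins Ccnb1 and Ccnb2 differed by 5.32 and 5.84, and the checkpoint proteins Bub1b and Bub3 by 5.23 and 4.85. Ccnb1 was called on neither other scale (adjusted p = 0.0517 and 0.0668), and Bub3 was not called on TPM without the repeat-like family (adjusted p = 0.0539). Cdk1, the kinase that these cyclins activate, did not pass, with 29.5, 18.3 and 0.424 FPKM in the oocyte and 6.76, 0.409 and 12.1 in the granulosa libraries (adjusted p = 0.653). Among 8 tested genes of meiotic cohesin and the synaptonemal complex, 1 had an unadjusted limma p under 0.05. Limma called 0 of the 8 in either direction, beside 12.2% of all genes called higher in oocytes. The highest of the 8 was Sycp3 at 35.2, 9.97 and 0 FPKM in the oocyte and 0.583, 0.286 and 0 in the granulosa libraries.

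Transcription factors of the oocyte lineage were called higher in oocytes for 6 of 9 tested genes, against 12.2% of all genes. Nobox, a homeobox factor required for follicle growth, had 161, 69.3 and 26.3 FPKM in the oocyte and 1.65, 0.253 and 0.212 in the granulosa libraries, a difference of 5.41 ± 0.99 (SE, adjusted p = 0.00123). Obox2, Obox1 and Obox5 of the oocyte homeobox cluster differed by 7.05, 5.77 and 4.76. Obox5 lost its call without oocyte replicate 1 or granulosa replicate 1 or 2. Sall4, a zinc finger factor, ran over 1216, 311 and 3421 FPKM in the oocyte libraries. Figla, the basic helix-loop-helix factor that activates zona genes, reached only 7.71, 26.04 and 0.886 FPKM in oocytes and 3.41, 0.6199 and 0.587 in granulosa libraries and did not pass (adjusted p = 0.338). Against 12.2% of all genes, 7 of 12 tested chromatin genes were called higher in oocytes. They included Dppa3 (STELLA), which protects maternal methylation, at 1454, 1521 and 1054 FPKM in the oocyte and 5.28, 1.24 and 1.81 in the granulosa libraries, Npm2, a chaperone of nuclear organization, at 749.8, 1560.3 and 653 FPKM in the oocyte and 8.49, 0.627 and 0.652 in the granulosa libraries, and H1foo, the oocyte linker histone, at 2719, 1489.8 and 575 FPKM in the oocyte and 17.1, 0.701 and 1.04 in the granulosa libraries. Dnmt1, the maintenance methyltransferase, differed by 6.35 and its partner Uhrf1 by 7.08. The de novo enzyme Dnmt3a did not pass (2.58, adjusted p = 0.101).

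The Fbxw genes on chromosome 9 form a mouse-specific cluster of F-box proteins, substrate adaptors of the SCF ubiquitin ligase. Of 14 genes in a list of this family with Skp1a, the SCF linker, 12 were called higher in oocytes, against 12.2% of all genes. The 2 others were Fbxw17, on chromosome 13, at 4.704, 0.0892 and 0 FPKM in the oocyte and 4.54, 0.351 and 0.657 in the granulosa libraries, and Fbxw13, at 92.2, 6.15 and 5.797 FPKM in the oocyte and 3.55, 0.266 and 0.5298 in the granulosa libraries. Fbxw14, Fbxw24 and Fbxw28 were the most abundant of the cluster, at 1151, 918 and 362, 1217, 792 and 409 and 1199, 578 and 307 FPKM in the oocyte libraries, and the highest value of these 3 genes in a granulosa library was 6.02 FPKM. Skp1a itself had 4318, 14349 and 4087 FPKM in the oocyte and 121, 5.64 and 768 in the granulosa libraries. The cluster members are close copies, so reads may be split between them and single levels are uncertain. Skp1a lost its call without granulosa replicate 2.

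Growth factors that pass between the cells were examined next. Gdf9 (chr11:53431023-53437904, GRCm38) had 1181, 1427 and 483 FPKM in the oocyte and 1.53, 0.611 and 0.553 in the granulosa libraries, means of 1031 ± 489.5 (SD, n = 3) and 0.897 ± 0.547 (SD, n = 3) FPKM. The groups did not overlap, and the difference was 8.98 ± 0.94 (SE, adjusted p = 6.17e-05). Bmp15 (chrX:6314107-6320721) had 722, 501 and 140.4 FPKM in the oocyte and 2.56, 0.232 and 0.542 in the granulosa libraries, a difference of 7.62 ± 0.99 (SE, adjusted p = 0.000111). Tgfb2, a further secreted factor of the family, had 133, 116 and 459 FPKM in the oocyte and 1.91, 0.418 and 0.505 in the granulosa libraries, with oocyte replicate 3 the highest. Fgf8, which acts with BMP15 on granulosa glycolysis, had 67.2, 141 and 0.703 FPKM in the oocyte and 0, 0 and 1.07 in the granulosa libraries, so oocyte replicate 3 lay within the granulosa range. Its call (adjusted p = 0.0367) held without oocyte replicate 3 or granulosa replicate 3 and was lost without any other library. Bmp6 had 33.96, 25.1 and 0.196 FPKM in oocytes and did not pass (adjusted p = 0.174).

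The receptors for these ligands stayed at or below 47.4 FPKM in all 6 libraries. Of 11 receptor genes 9 were tested and limma called 0, beside 12.2% of all genes called higher in oocytes. At an unadjusted p under 0.05 there were also 0. Bmpr2, the type II receptor used by GDF9 and BMP15, had 6.398, 9.51 and 0.504 FPKM in the oocyte and 5.39, 0.722 and 18.7 in the granulosa libraries. Its partner Bmpr1b had 17.7, 3.93 and 0.628 FPKM in the oocyte and 5.44, 0.359 and 1.53 in the granulosa libraries, and Tgfbr1 (ALK5) had 0.882, 0.299 and 0.258 FPKM in the oocyte and 3.803, 1.27 and 10.3 in the granulosa libraries. Bmpr2 and Tgfbr1 were highest in granulosa replicate 3, Bmpr1b in oocyte replicate 1 and Bmpr1a, which had the highest value of the list, in granulosa replicate 1. The median difference of the list was -0.17 on FPKM, -1.90 on TPM without the repeat-like family and -0.88 after quantile normalization, each below the median of all genes on that scale (0.61, -0.64 and -0.08).

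Among transcripts for signals from granulosa cells to the oocyte, Nppc, Fst, Inhba and Inha were highest in granulosa replicate 3. Nppc, the precursor of C-type natriuretic peptide that holds the oocyte in meiotic arrest, had 1.73, 0 and 0 FPKM in the oocyte and 4.33, 0.9802 and 1027 in the granulosa libraries. Fst (follistatin) had 0, 0.0862 and 0.0479 FPKM in the oocyte and 1.05, 0.445 and 247 in the granulosa libraries, Inhba (the activin A subunit) 0, 0.1295 and 0 FPKM in the oocyte and 12.3, 0.262 and 83.9 in the granulosa libraries and Inha 0.798, 1.34 and 0 FPKM in the oocyte and 0.555, 0.3904 and 263 in the granulosa libraries. Replicate 2 lay at or below 1 FPKM for all 4. None of 6 tested ligands passed limma's adjusted threshold on FPKM, and 3 had an unadjusted p under 0.05, all higher in granulosa cells. On TPM without the repeat-like family Nppc, Inhba and Fst were called higher in granulosa cells, against 3.97% of all genes, with adjusted p = 0.0136 for Nppc. Kitl, the ligand of the oocyte receptor KIT, was low and highest in granulosa replicate 1, at 0.541, 0.0727 and 0 FPKM in the oocyte and 5.07, 0.209 and 1.69 in the granulosa libraries, and Npr2, the receptor of C-type natriuretic peptide, at 0, 0.758 and 0 FPKM in the oocyte and 0.8703, 0.143 and 3.597 in the granulosa libraries. Igf1 had 12.2 FPKM in granulosa replicate 3.

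On the receiving side, Gja4 (connexin 37), which forms the oocyte side of the gap junctions with granulosa cells, had 162, 199 and 57.8 FPKM in the oocyte and 0, 0.1102 and 0.933 in the granulosa libraries, a difference of 6.59 ± 0.96 (SE, adjusted p = 0.000208). Gja1 (connexin 43), the granulosa connexin, had 1.76, 29.2 and 31.1 FPKM in the oocyte and 21.04, 1.14 and 839 in the granulosa libraries. Granulosa replicate 3 stood above every other library for Gja1, and the groups overlapped (adjusted p = 0.598). Kit had 74.9, 27.6 and 1.07 FPKM in the oocyte and 1.504, 0.148 and 0.706 in the granulosa libraries, Gpr3, the receptor that keeps cyclic AMP high, 23.3, 15.3 and 0.348 FPKM in the oocyte and 0, 0 and 0.2999 in the granulosa libraries, and Pde3a, the phosphodiesterase that ends arrest, 15.1, 12.6 and 1.72 FPKM in the oocyte and 0.975, 0.4797 and 0.412 in the granulosa libraries. All 3 were higher in oocyte replicates 1 and 2 than in any granulosa library, and none passed the adjusted test. Prkaca, the catalytic subunit of protein kinase A, differed by 4.47 ± 0.93 (SE, adjusted p = 0.00315). Gja4 and Prkaca were the 2 called of 9 tested genes in this list, beside 12.2% of all genes.

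**Figure D3:**
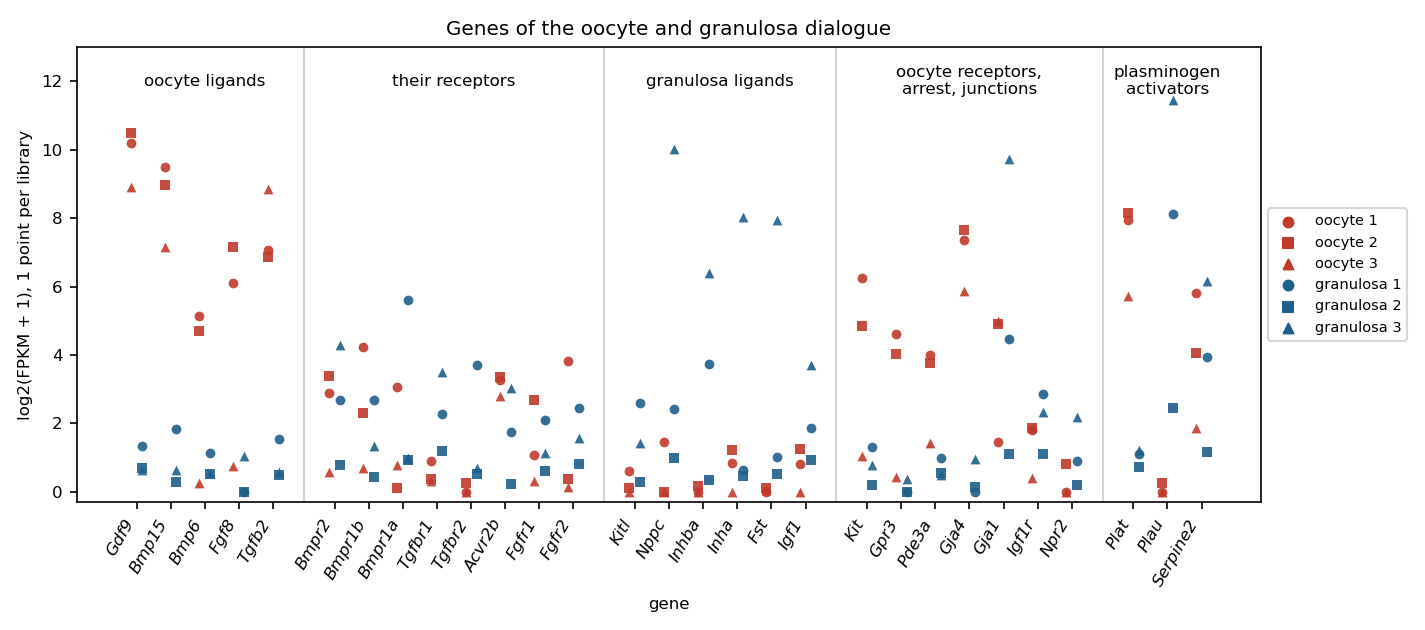
log2(FPKM + 1) of ligands, receptors, junction proteins and plasminogen activators, with 1 point for each of the 3 oocyte libraries (red) and 3 granulosa libraries (blue). Gdf9, Bmp15, Tgfb2, Gja4 and Plat separate the oocyte libraries from all granulosa libraries, Nppc, Inha and Fst stand out in granulosa replicate 3 alone, and Plau is higher in all 3 granulosa libraries.

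Proximal promoters of 6 genes that mark the 2 cell types are shown for the 250 bases before the RefSeq start (GRCm38.p6), in the direction of transcription. Oocyte-specific promoters are known for E-boxes, the sites of FIGLA, so the letters CANNTG, which read alike on both strands, are in capitals in Zp3 (chr5:135979855-135980104, plus strand), Bmp15 (chrX:6320725-6320974, minus strand), Oosp1 (chr19:11691052-11691301, minus strand), which encodes an oocyte-secreted protein, and, from the granulosa side, Fshr (chr17:89200676-89200925, minus strand), whose promoter is known to use an E-box. In Nppc (chr1:86670574-86670823, minus strand) the capitals mark TATAAA, and in Cyp11a1 (chr9:58014702-58014951, plus strand), a steroidogenic enzyme high in granulosa replicate 1, they mark the nuclear receptor element AGGTCA. RefSeq has another Cyp11a1 start, whose window (chr9:57997774-57998023, plus strand) held 0 matches to AGGTCA. The Cyp11a1 window shown is the one whose first transcribed bases lie in a transcript of the annotation used here. The same held for the windows of Zp3, Oosp1 and Fshr, and it did not hold for those of Bmp15 and Nppc. Both motifs were searched on both strands.
Zp3: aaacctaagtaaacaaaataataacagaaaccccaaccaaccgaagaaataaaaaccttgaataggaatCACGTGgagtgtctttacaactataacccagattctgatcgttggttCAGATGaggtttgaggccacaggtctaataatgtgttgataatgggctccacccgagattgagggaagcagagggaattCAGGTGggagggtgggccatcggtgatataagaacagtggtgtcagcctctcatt
Bmp15: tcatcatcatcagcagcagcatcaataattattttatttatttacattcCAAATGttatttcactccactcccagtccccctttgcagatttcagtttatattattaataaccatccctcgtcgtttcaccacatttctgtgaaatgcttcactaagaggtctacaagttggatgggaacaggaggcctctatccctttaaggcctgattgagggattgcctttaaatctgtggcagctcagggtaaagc
Oosp1: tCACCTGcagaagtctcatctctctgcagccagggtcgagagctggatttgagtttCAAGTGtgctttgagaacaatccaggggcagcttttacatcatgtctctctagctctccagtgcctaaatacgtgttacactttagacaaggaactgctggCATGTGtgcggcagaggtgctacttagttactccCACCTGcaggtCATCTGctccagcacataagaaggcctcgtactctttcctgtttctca
Fshr: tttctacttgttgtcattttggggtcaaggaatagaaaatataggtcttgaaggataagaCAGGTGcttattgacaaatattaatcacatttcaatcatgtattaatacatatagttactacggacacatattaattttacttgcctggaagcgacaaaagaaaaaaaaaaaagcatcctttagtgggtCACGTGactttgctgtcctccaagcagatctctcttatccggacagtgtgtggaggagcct
Nppc: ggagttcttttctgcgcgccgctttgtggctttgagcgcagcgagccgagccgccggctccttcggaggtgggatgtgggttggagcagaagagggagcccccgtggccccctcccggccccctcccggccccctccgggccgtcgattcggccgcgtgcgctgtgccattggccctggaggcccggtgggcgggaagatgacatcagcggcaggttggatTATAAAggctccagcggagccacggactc
Cyp11a1: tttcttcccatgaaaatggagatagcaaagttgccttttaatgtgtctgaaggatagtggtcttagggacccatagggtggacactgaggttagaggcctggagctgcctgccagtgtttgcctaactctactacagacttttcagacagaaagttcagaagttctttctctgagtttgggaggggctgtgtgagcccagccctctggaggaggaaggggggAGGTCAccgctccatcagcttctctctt

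Zp3 held 3 matches to CANNTG, Oosp1 5, Fshr 2 and Bmp15 1. The letters are frequent. They occurred in 66.2% of all 32851 promoter windows of this length, in 57.9% of the 10111 windows of coding genes tested here and in 66.4% of the 428 windows of genes called higher in oocytes on 3 scales, 349 of 434 such genes having a window. TAATTG, the element of NOBOX, occurred in 7.17, 4.65 and 5.37% of these windows, TATAAA in 12.4, 6.65 and 8.88%, AGGTCA in 14.0, 11.1 and 13.6% and TGACGTCA, the cAMP response element, in 1.55, 2.73 and 2.57%. A match describes the letters of the window and is no evidence of binding.

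Genes of granulosa function were few and uneven. Of 50 genes in 4 lists (gonadotropin and steroid receptors, granulosa transcription factors, steroidogenesis, cumulus expansion and ovulation), 29 passed the filter and limma called 0 in either direction, with 1 higher in oocytes and 7 higher in granulosa cells at an unadjusted p under 0.05. Only 0.468% of all genes were called higher in granulosa cells, so a count of 0 among 29 does not set these lists apart in that direction. On TPM without the repeat-like family 7 were called higher in granulosa cells, against 3.97% of all genes, and after quantile normalization 1 was, against 2.08%. In granulosa replicate 3, 13 of the 50 genes reached 10 FPKM, in replicate 1, 8 and in replicate 2, 0, against 4 or 5 in each oocyte library.

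The steroid pathway separated the granulosa libraries from each other. Cyp11a1 (chr9:58006411-58027023), which cleaves the cholesterol side chain, had 4.03, 0.574 and 0 FPKM in the oocyte and 1341, 0.683 and 11.1 in the granulosa libraries and was the most abundant nuclear coding gene outside the repeat-like family in replicate 1. Akr1c18, which inactivates progesterone in the regressing corpus luteum, had 1.305, 0 and 0 FPKM in the oocyte and 386, 5.78 and 2.77 in the granulosa libraries, and Fdx1, the electron donor of CYP11A1, 37.8, 4.58 and 116 FPKM in the oocyte and 338, 0.406 and 47.8 in the granulosa libraries. Replicate 1 was the highest library for all 3. Ptgfr, the receptor through which prostaglandin F2 alpha ends luteal function, had 24.3 FPKM in replicate 1, while 0.907 FPKM was the next highest value in any of the 6 libraries, in replicate 3. Hsd3b1 and Star were highest in replicate 3, at 50.6 and 20.4 FPKM. Cyp19a1 (aromatase), which makes estrogen, had 7.14, 0.351 and 0 FPKM in the oocyte and 0.294, 0.468 and 10.2 in the granulosa libraries. Of 13 tested steroidogenic genes limma called 0, with 1 and 5 higher in oocytes and granulosa cells at an unadjusted p under 0.05. On TPM without the repeat-like family 4 were called higher in granulosa cells, Star, Cyp11a1 and Akr1c18 among them, against 3.97% of all genes.

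Receptors and transcription factors of granulosa cells did not share 1 highest library. Wt1 and Foxl2 were highest in granulosa replicate 3. Wt1 had 0, 0.178 and 0 FPKM in the oocyte and 1.26, 0.494 and 29.6 in the granulosa libraries and Foxl2 0.0134, 0.185 and 0.0254 FPKM in the oocyte and 4.43, 0.912 and 25.8 in the granulosa libraries. Lhcgr, the receptor for luteinizing hormone, was highest in replicate 1, with 0.121, 0.136 and 0 FPKM in the oocyte and 5.80, 0.333 and 1.82 in the granulosa libraries, and so was Amhr2, the receptor for anti-Müllerian hormone, at 4.30, 0.494 and 0.761 FPKM in the granulosa libraries. Nr5a2, a nuclear receptor of granulosa cells, was highest in oocyte replicate 1, with 8.26, 2.67 and 0.234 FPKM in the oocyte and 2.38, 0.814 and 1.796 in the granulosa libraries. Esr2 (estrogen receptor beta), which granulosa cells are known for, had 15.8, 18.8 and 0.992 FPKM in the oocyte and 2.42, 0.115 and 6.24 in the granulosa libraries, and Esr1 8.68, 18.4 and 58.4 FPKM in the oocyte and 5.04, 1.52 and 10.03 in the granulosa libraries, so the highest value of both was in an oocyte library. The list medians on FPKM were 0.08 for the 6 tested receptors and -0.26 for the 9 tested transcription factors, and on TPM without the repeat-like family both were negative (-1.69 and -1.82), as after quantile normalization (-0.90 and -1.93). Of 17 genes of cumulus expansion and ovulation only Vcan and Egfr passed the filter on low values. Areg and Sult1e1 were listed at 0 in all 6 libraries, Has2, the hyaluronan synthase of the expanding cumulus, at 0 in 5 of them and at 0.246 FPKM in granulosa replicate 3, and Ptgs2 at 0.977, 1.03 and 0.0528 FPKM in the oocyte and 0.514, 0.0906 and 0.187 in the granulosa libraries.

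Among genes outside the lists, the largest differences toward granulosa cells were led by Plau (chr14:20836660-20843385), the urokinase-type plasminogen activator. It had 0, 0.196 and 0 FPKM in the oocyte and 278, 4.51 and 2824 in the granulosa libraries, and the groups did not overlap. The difference was -7.26 ± 1.54 (SE, adjusted p = 0.00366), and the adjusted p stayed between 0.00119 and 0.0489 with any 1 library left out. The other activator differed in the opposite direction. Plat (chr8:22757727-22782844), the tissue-type enzyme, had 245, 282 and 52.3 FPKM in the oocyte and 1.16, 0.656 and 1.35 in the granulosa libraries, a difference of 6.25 ± 0.98 (SE, adjusted p = 0.000391). Both calls were made on all 3 scales. Serpine2, an inhibitor of both enzymes, had 54.9, 15.7 and 2.63 FPKM in the oocyte and 14.2, 1.22 and 71.0 in the granulosa libraries and did not pass the test (adjusted p = 0.945). Plgrkt, a membrane receptor for plasminogen, had 0, 0.273 and 0 FPKM in the oocyte and 71.7, 1.09 and 38.4 in the granulosa libraries (adjusted p = 0.0285). Without granulosa replicate 1 its adjusted p was 0.214, and it was also above 0.05 without oocyte replicate 1 or 3 or granulosa replicate 3.

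Sept10, a septin of the cytoskeleton, had 2.33, 0.108 and 0 FPKM in the oocyte and 211, 20.5 and 1208 in the granulosa libraries, a difference of -6.84 ± 1.24 (SE, adjusted p = 0.00114) that was called with any 1 library left out. Pam, which amidates peptide hormones, had 1.498, 0.366 and 2.99 FPKM in the oocyte and 156, 6.298 and 441 in the granulosa libraries, and Skil (SnoN), a repressor of TGF-beta signalling, 0, 0.206 and 0 FPKM in the oocyte and 66.1, 1.08 and 177 in the granulosa libraries. All 3 were highest in replicate 3 and followed the order replicate 3, replicate 1, replicate 2. Pam lost its call without granulosa replicate 1 (adjusted p = 0.0994), and Skil did without granulosa replicate 1 or 3 or oocyte replicate 1 or 3 (adjusted p = 0.0535 to 0.145). Dcn (decorin), a stromal proteoglycan, had 0.568, 0 and 0 FPKM in the oocyte and 67.6, 0.718 and 57.3 in the granulosa libraries. It was the only theca and stromal marker called on FPKM (adjusted p = 0.0371) and kept that call only without granulosa replicate 2. On TPM without the repeat-like family, Col1a2 and Col3a1 were also called higher in granulosa cells (adjusted p = 0.0391 and 0.0358, limma). Mgarp, a mitochondrial protein of steroid-producing cells, Zfp970 and Speer4cos, which has close copies, had differences of -3.99, -3.07 and -3.01. Mgarp kept its call only without granulosa replicate 2, Zfp970 only without oocyte replicate 3 and Speer4cos lost it whichever library was left out.

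The largest differences toward oocytes outside the lists were those of Spin1, Upf1, Gtsf1, Kdm6b, Gyg and 7 others, between 7.97 and 9.23 on the log2 scale. Spin1, a maternal reader of histone methylation, had 3888, 1289 and 7645 FPKM in the oocyte and 14.4, 2.297 and 2.47 in the granulosa libraries. Upf1, the helicase of nonsense-mediated decay, had 456, 2417 and 569 FPKM in the oocyte and 2.33, 0.848 and 0.601 in the granulosa libraries, with oocyte replicate 2 the highest. Gtsf1, a factor of the piRNA pathway, had 1149.9, 1390.1 and 381 FPKM in the oocyte and 3.28, 1.07 and 0.281 in the granulosa libraries, and Kdm6b, which removes methyl groups from lysine 27 of histone H3, 1289.8, 2955 and 1295 FPKM in the oocyte and 6.44, 0.882 and 6.91 in the granulosa libraries. Gyg (glycogenin), the primer of glycogen, ran from 492 to 1557 FPKM in oocytes and reached 4.42 FPKM at most in granulosa libraries. Nlrp14 and Oosp2 are further oocyte genes, at 941, 703 and 1227 and 442, 449 and 292 FPKM in oocytes. Sirt6, a chromatin deacylase, had 364, 791 and 1001 FPKM in the oocyte and 6.91, 0.446 and 0.595 in the granulosa libraries. All of these were called on the 3 scales and with any 1 library left out.

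Nutrient and energy metabolism was covered by 7 lists with 128 genes of the nuclear genome. Of 101 that passed the filter, 9 were called higher in oocytes and 0 in granulosa cells, beside 12.2% of all genes called higher in oocytes. Leaving out 1 library at a time gave 4 to 25 calls higher in oocytes. On all 3 scales 2 were called, Pkm and Sod1, against 3.89% of all genes. On TPM without the repeat-like family Ldha, Gpx8, Yme1l1 and Slc38a2, an amino acid carrier, were called higher in granulosa cells. These 4 of the 101 are near the 3.97% of all genes on that scale. Pkm, the pyruvate kinase of the last step of glycolysis, had 81.9, 153 and 25.5 FPKM in the oocyte and 0.3399, 0.481 and 1.72 in the granulosa libraries, a difference of 5.31 ± 0.99 (SE, adjusted p = 0.00142). Ldhb, the lactate dehydrogenase subunit that favours pyruvate, had 1511, 1008 and 243 FPKM in the oocyte and 76.6, 0.3698 and 0.6297 in the granulosa libraries and differed by 7.01 ± 1.33 (SE, adjusted p = 0.00171), while Ldha, the other subunit, was low, at 0.258, 0.828 and 0 FPKM in the oocyte and 4.01, 1.03 and 16.5 in the granulosa libraries (adjusted p = 0.215). Slc16a1, a carrier of pyruvate and lactate, had 5.59, 8.09 and 1.89 FPKM in the oocyte and 20.2, 0.536 and 137 in the granulosa libraries. Granulosa replicate 3 was the highest library for both Ldha and Slc16a1. The other members of glycolysis did not pass on FPKM, and Gapdh was at 0.502, 0.4698 and 0 FPKM in the oocyte and 2.54, 0.331 and 1.36 in the granulosa libraries.

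Of 21 tested genes of pyruvate entry and the citrate cycle limma called 0, beside 12.2% of all genes called higher in oocytes. At an unadjusted p under 0.05, 5 were higher in oocytes, beside 2907 of all 13047 genes, which is a similar share. Mdh1, the cytosolic malate dehydrogenase, came nearest, with 18.0, 20.3 and 15.5 FPKM in the oocyte and 4.71, 0.259 and 1.06 in the granulosa libraries (adjusted p = 0.0522). The list median was 1.84 on FPKM, 0.87 on TPM without the repeat-like family and 0.36 after quantile normalization. Lists of amino acid and nucleotide supply (12 tested) and NAD metabolism (8 tested) also had 0 calls, with 3 and 1 genes at an unadjusted p under 0.05. Their medians of 0.68 and 0.25 on FPKM turned negative on TPM without the repeat-like family (-0.53 and -1.06) and after quantile normalization (-0.31 and -0.20).

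Cholesterol synthesis is a pathway in which cumulus cells are known to supply the oocyte. Of 15 tested genes 3 were called higher in oocytes on FPKM, against 12.2% of all genes. Among them were Hmgcs1, an early enzyme, and Fdft1, which makes squalene, with adjusted p = 0.00421 and 0.039. No gene of the list was called on the other 2 scales, and its median of 0.67 on FPKM was -0.32 on TPM without the repeat-like family. Hmgcs1 had 123, 57.7 and 49.2 FPKM in the oocyte and 1.58, 0.244 and 6.84 in the granulosa libraries. Granulosa replicate 3 was within the oocyte range for Sc5d, a late enzyme, at 86.5, 258 and 206 FPKM in the oocyte and 1.28, 1.73 and 154 in the granulosa libraries. Hmgcs1 lost its call only without granulosa replicate 2 (adjusted p = 0.0505), and Fdft1 kept it only without oocyte replicate 3 or granulosa replicate 3.

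Antioxidant enzymes were led by Sod1 (chr16:90220754-90226329), the cytosolic superoxide dismutase and one of the 3 most abundant nuclear coding genes of every oocyte library. It had 9899, 12944 and 13185 FPKM in the oocyte and 56.5, 7.62 and 522 in the granulosa libraries, means of 12009.5 ± 1832 (SD, n = 3) and 195 ± 284 (SD, n = 3) FPKM. The difference was 7.55 ± 1.22 (SE, adjusted p = 0.000471) and was called on all 3 scales. Prdx2, a peroxiredoxin, had 234, 444 and 173 FPKM in the oocyte and 11.1, 0.558 and 16.8 in the granulosa libraries (adjusted p = 0.00267), and Gclm, the modifier subunit of glutathione synthesis, 21.4, 11.3 and 24.8 FPKM in the oocyte and 0.685, 1.298 and 0.793 in the granulosa libraries (adjusted p = 0.022). Both were called on FPKM only, and Gclm kept its call only without oocyte replicate 2 or 3. Gpx8, a peroxidase of the endoplasmic reticulum, was highest in granulosa replicate 3, at 49.6 FPKM against 2.88 in the next highest library. The list median of 17 tested genes was 1.27, and 1.55 and 0.70 on the other scales.

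Mitochondria were examined through nuclear genes of their dynamics and import and through their own genome. Of 14 nuclear genes 1 was called higher in oocytes, against 12.2% of all genes. It was Oma1, a protease of the inner membrane, with 13.8, 9.297 and 6.34 FPKM in the oocyte and 0, 0.395 and 0.339 in the granulosa libraries (adjusted p = 0.0341). The call was kept only without oocyte replicate 3. Yme1l1, its partner protease, had 18.1, 23.7 and 18.002 FPKM in the oocyte and 232, 9.23 and 2031 in the granulosa libraries. Granulosa replicates 1 and 3 were far above the oocyte libraries for Yme1l1 and replicate 2 was below them, and the difference was called on TPM without the repeat-like family and after quantile normalization but not on FPKM (adjusted p = 0.187). The list median was positive on all 3 scales (1.57, 0.35 and 0.72).

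Some coding genes and most transfer RNA genes of the mitochondrial genome were higher in granulosa libraries. Of 13 coding genes, 5 were called on FPKM (mt-Nd1, mt-Nd2, mt-Nd3, mt-Nd4l and mt-Nd5, subunits of respiratory complex I), against 0.468% of all genes, and 10 on each of the other scales, against 3.97 and 2.08%. mt-Nd4l had 9.71, 12.6 and 15.5 FPKM in the oocyte and 473, 234 and 172 in the granulosa libraries, a difference of -4.32 ± 0.94 (SE, adjusted p = 0.0042). mt-Co2, a subunit of cytochrome oxidase, had 174, 232 and 141 FPKM in the oocyte and 3246, 276 and 2553 in the granulosa libraries, and mt-Cytb 1175, 277 and 416 FPKM in the oocyte and 2067, 511 and 393 in the granulosa libraries. The groups overlapped for mt-Cytb, mt-Atp6 and mt-Atp8 and for no other coding gene, so 10 of 13 were higher in every granulosa than in every oocyte library, against 12.9% of all genes tested. Of 22 mitochondrial transfer RNA genes tested, 21 were called higher in granulosa libraries on all 3 scales, against 0.391% of all genes. Their median difference was -4.79, and the 2 mitochondrial ribosomal RNA genes were not called. Each of the 5 complex I calls was lost without granulosa replicate 1, where adjusted p ranged from 0.0551 for mt-Nd4l to 0.176 for mt-Nd1. mt-Nd4l kept its call without any of the other 5 libraries, mt-Nd5 kept it in 3 of the 6 fits with 1 library left out, and mt-Nd1, mt-Nd2 and mt-Nd3 in 2 of 6. Those 3 were lost without any 1 of the granulosa libraries. Without the repeat-like family, genes of the mitochondrial genome took 0.715 to 1.09% of TPM in oocyte libraries and 27.5, 37.9 and 7.80% in granulosa replicates 1, 2 and 3. Replicate 2, in which the granulosa markers summed to 5.62 FPKM, had the largest share of the 6 libraries. The highest of the 13 coding genes was 8.97, 4.48 and 18.0 times the lowest in granulosa replicates 1, 2 and 3, and 24.4 to 121 times in the oocyte libraries.

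The repeat-like family was chosen in part for its level in this series, so its values are a description. Gm10800 (chr2:98666547-98667301) had 151, 6117 and 3148 FPKM in the oocyte and 654349, 944446 and 437534 in the granulosa libraries, and 9 of the 10 genes were higher in every granulosa than in every oocyte library. Their differences ran from -6.99 for Gm10719 to -9.07 for Gm10721. Gm10718 was listed at 0 in granulosa replicates 1 and 3 and at 6068 FPKM in replicate 2. These genes share sequence, so reads can be split between them and single values are uncertain. Gm10800 was the highest and Gm21738 the next highest of the 10 in all 6 libraries.

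**Figure D4:**
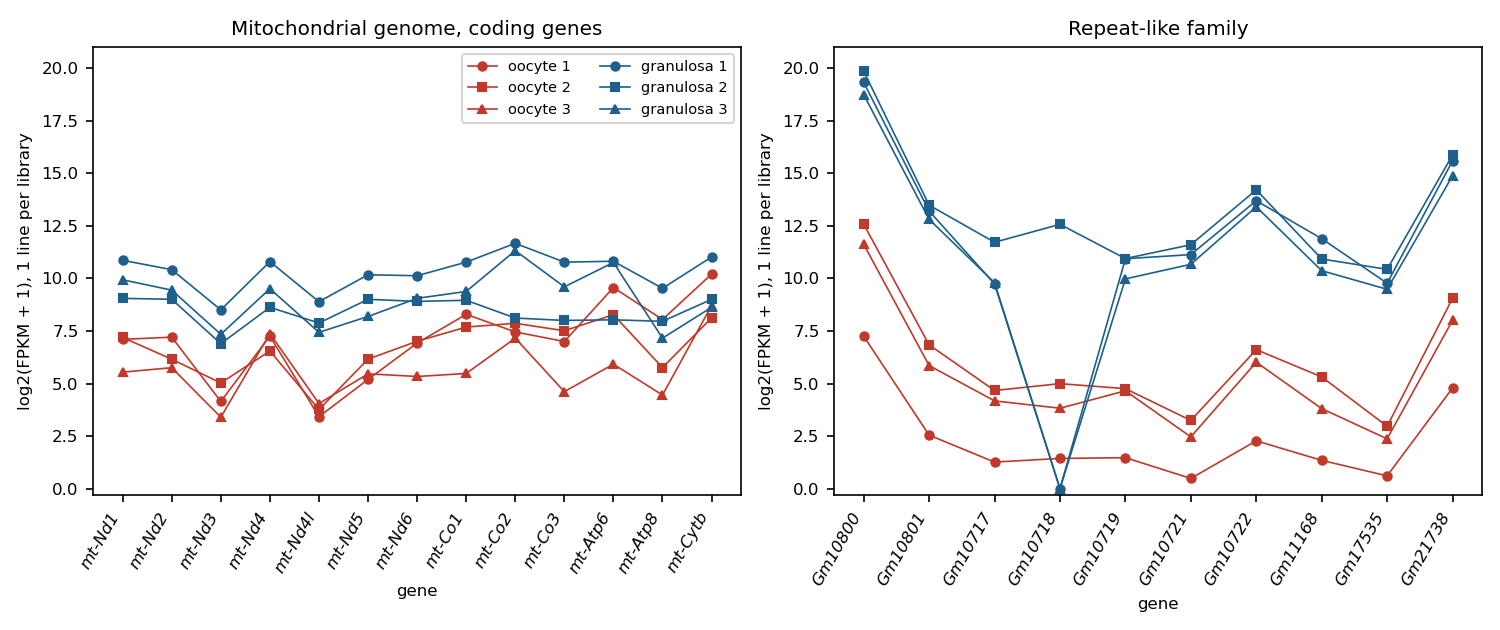
log2(FPKM + 1) of the 13 coding genes of the mitochondrial genome (left) and of the 10 genes of the repeat-like family (right), with 1 line for each oocyte library (red) and granulosa library (blue). The granulosa lines lie above the oocyte lines except at mt-Cytb, mt-Atp6 and mt-Atp8 and at Gm10718, which was listed at 0 in granulosa replicates 1 and 3.

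In a list of basal lamina and matrix genes 11 of 25 passed the filter, and Plat and Lamb1, a laminin chain, were called higher in oocytes. This share, like that of the cytoskeletal genes that follow, is near the 12.2% of all genes. Timp3, an inhibitor of matrix proteases, was called higher in granulosa cells on TPM without the repeat-like family only. Lamb1 had 89.4, 74.4 and 14.2 FPKM in the oocyte and 3.24, 0.569 and 0.591 in the granulosa libraries. Lamb1 lost its call without granulosa replicate 2. The collagens Col4a1 to Col4a4 stayed at or below 3.48 FPKM in every library. Of 12 tested cytoskeletal genes, Tubb5, a tubulin, and Tmsb10, a thymosin, were called higher in oocytes, with adjusted p = 0.0144 and 0.00114. On TPM without the repeat-like family 1 of the list was called higher in oocytes, Tmsb10, and after quantile normalization 0 were. Tubb5 lost its call without oocyte replicate 1 or granulosa replicate 2. Vim (vimentin), a filament of somatic cells, had 0.0623, 0.365 and 0.133 FPKM in the oocyte and 28.1, 0.466 and 18.4 in the granulosa libraries and was called on TPM without the repeat-like family only. Actb had 1897, 4292 and 4355 FPKM in the oocyte and 565, 18.9 and 13535 in the granulosa libraries, the highest nuclear coding value of granulosa replicate 3.

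Receptors for factors that the transplanted cells are said to secrete, such as CXCL1, IL1B, CCL2, TGFBI and FGF7, were covered by 14 genes, of which 10 were tested. The 1 call among them stands beside 12.2% of all genes called higher in oocytes. It was Itgb3, an integrin subunit, with 10.1, 15.1 and 15.5 FPKM in the oocyte and 1.85, 0.218 and 0.849 in the granulosa libraries (adjusted p = 0.0437), which was not called on the other scales and kept its call only without oocyte replicate 3. Il1r1, the interleukin 1 receptor, had 6.77, 1.47 and 9.89 FPKM in the oocyte and 0.3696, 0.5997 and 0.527 in the granulosa libraries, higher in each oocyte library than in any granulosa library but not past the test (adjusted p = 0.214). Fgfr2, whose splice form binds FGF7, had 13.03, 0.308 and 0.0941 FPKM in the oocyte and 4.49, 0.754 and 2.002 in the granulosa libraries, and Itgav, an integrin subunit, 0.335, 0.647 and 0 FPKM in the oocyte and 8.61, 1.43 and 5.34 in the granulosa libraries. Itgav was called higher in granulosa cells on TPM without the repeat-like family and after quantile normalization. Cxcr2 and Ccr2, the chemokine receptors, were at or below 1.76 FPKM in all 6 libraries. Igf2r, a receptor that clears IGF2, had 111, 325 and 119 FPKM in the oocyte and 12.5, 0.397 and 169.8 in the granulosa libraries (adjusted p = 0.107).

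Regulators of apoptosis were represented by 11 tested genes. Bcl2l10 (DIVA), an oocyte member of the BCL2 family, had 1141, 1383 and 310.5 FPKM in the oocyte and 0, 0.767 and 0.992 in the granulosa libraries, a difference of 9.02 ± 0.97 (SE, adjusted p = 6.17e-05), and was the only call, a share near the 12.2% of all genes called higher in oocytes. Bcl2 and Mcl1 were at 0.522, 0.5796 and 0.362 FPKM in the oocyte and 2.91, 1.99 and 1.81 in the granulosa libraries and 2.404, 2.24 and 0 FPKM in the oocyte and 3.02, 1.002 and 1.002 in the granulosa libraries. Immediate early and stress genes gave 1 call among 9 tested, again near the 12.2% of all genes. It was Hsp90aa1, a chaperone, at 929, 1586 and 4165 FPKM in the oocyte and 355, 1.35 and 68.2 in the granulosa libraries (adjusted p = 0.0114). The call was lost without oocyte replicate 3 or granulosa replicate 2. Fos, Jun and Junb did not exceed 7.01 FPKM in any library, and Gadd45a, a stress sensor, was highest in granulosa replicates 1 and 3, at 50.4 and 38.6 FPKM.

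**Figure D5:**
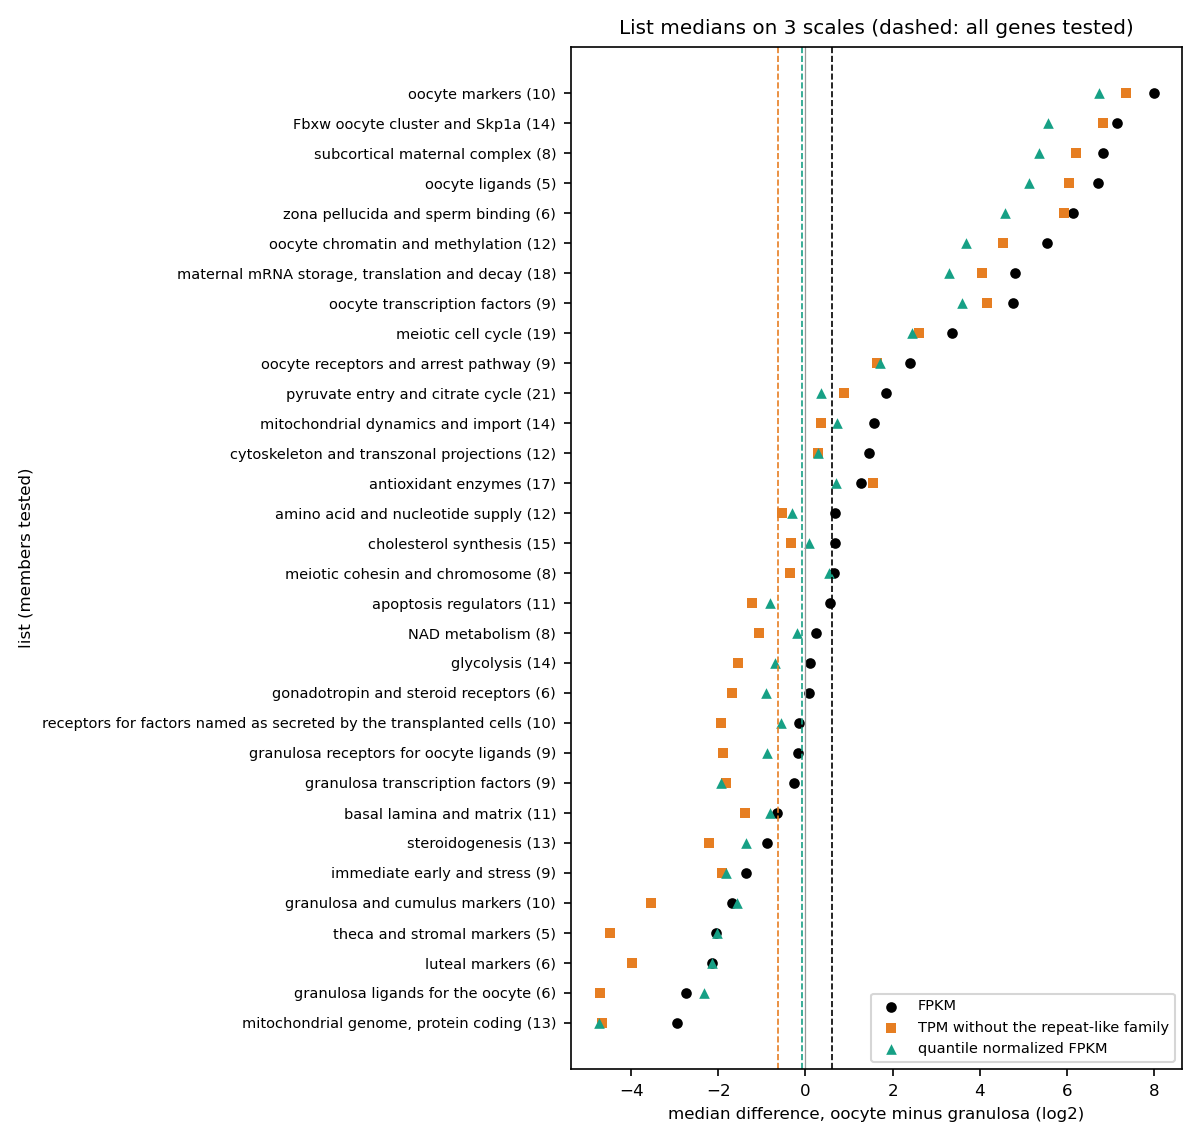
Median difference, oocyte minus granulosa on the log2 scale, of the tested members of each list with 5 or more tested members (number in brackets), on FPKM (circles), TPM without the repeat-like family (squares) and quantile normalized FPKM (triangles). Dashed lines mark the median of all genes on each scale, and the lists of oocyte functions lie to the right of them, down to 2.39 on FPKM for oocyte receptors and the arrest pathway, while meiotic cohesin lies close to them.

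Whether the difference between the cell types itself differed after transplantation was tested against Aged mice without transplantation, which have 2 oocyte and 2 granulosa libraries. The contrast was the change from Aged to Aged + LRP1high in oocytes minus that in granulosa cells, in 1 limma model of all 21 libraries. Of 19494 genes 0 were called (0%), and 44 positive and 3394 negative values had an unadjusted p under 0.05. The median of all genes was -1.91, on TPM without the repeat-like family -2.92 and after quantile normalization -0.09, and only the last gave calls, 43 positive and 3 negative. Without Aged oocyte replicate 1, 1 positive and 789 negative genes were called, and without Aged oocyte replicate 2, 88 and 8679. In the Aged granulosa libraries the repeat-like family held 93.4 and 95.4% of TPM and the granulosa markers summed to 1.45 and 1.84 FPKM. The 10 oocyte markers summed to 153 FPKM in Aged oocyte replicate 1 and 9051 FPKM in replicate 2, so 1 of the 2 Aged oocyte libraries was low in its own markers. Their part in the result was not tested.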

How the data were processed

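Libraries were grouped by their labels, and all replicates are those the labels number. Per the labels' processing notes, the authors aligned reads with HISAT2 2.2.1 and quantified genes with StringTie 1.3.3b, and the deposited files give coverage, FPKM and TPM per gene. The notes name mm9, whereas the coordinates in the files match GRCm38. The kit named in the labels and the Smart-seq2 protocol in the study's methods differ. Here FPKM were summed over repeated gene identifiers, and log2(FPKM + 1) of genes with a mean of at least 1 FPKM over the 6 libraries was tested with limma 3.58.1 in R 4.3.3, without covariates, with Benjamini-Hochberg adjustment. Fold changes on this scale understate those of low genes. TPM were also rescaled without the repeat-like family. Depth in gigabases was derived from the deposited coverage and FPKM. Genes were named if they belonged to a list or to the repeat-like family, or were among up to 12 called genes per direction outside these with the largest differences, no overlap between groups and a mean of at least 10 FPKM in the higher cell type. The members and lists were chosen with earlier results of these data known. In simulated data of 13047 genes, 1 of 100 changes of 3 log2 units and 59 of 100 of 6 units were recovered, and 3 unchanged genes were called. Far fewer genes were changed there than were called in the data (1596 and 61). These rates therefore do not measure recovery in the reported fit. Some list members are counted in their lists but not reported here by name.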

Additional observations from a re-analysis of the deposited data

Results flagged for a closer look

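In the 2 genes flagged here, the listed values changed from Aged to Aged + LRP1high in opposite directions in the 2 cell types. They are not a count of all such genes, and the median of this contrast over 19494 genes was -1.91. The granulosa and cumulus markers summed to only 1.45 and 1.84 FPKM in the Aged granulosa libraries. Gm10717, a member of the repeat-like family, had a difference between oocytes and granulosa cells of -7.05 after transplantation, on the log2(FPKM + 1) scale. In Aged mice it had 923 and 378 FPKM in the oocyte libraries and was listed at 0 in both granulosa libraries. The whole family held 93.4 and 95.4% of TPM in those granulosa libraries, and reads can be split between its members. The part of this in the difference was not tested. The difference between the changes was -16.26 and did not pass limma's threshold (adjusted p = 0.0909). Sept10 had a difference of -6.84 after transplantation. In Aged mice it had 3.08 and 3.96 FPKM in the oocyte and 0.621 and 0.610 FPKM in the granulosa libraries. All of these lay below the 95th percentile of the olfactory and vomeronasal receptor genes. That percentile was 10.5 and 5.34 FPKM in the Aged oocyte and 1.05 and 0.943 FPKM in the Aged granulosa libraries. The direction of the Sept10 change in oocytes thus rests on values within that background. For Sept10 the difference between the changes was -8.31 (adjusted p = 0.103, limma).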

How the results depend on the processing

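Counts of genes higher in oocytes and in granulosa cells (1596 and 61) were 603 and 518 on TPM without the repeat-like family, 2630 and 38 on TPM as deposited, 662 and 272 after quantile normalization, 949 and 70 with a pseudocount of 0.1, 778 and 175 with no filter, 3235 and 285 with library weights and 2907 and 262 at an unadjusted p. Chosen after seeing the data, TPM over nuclear coding genes alone gave 356 and 1228, and granulosa replicate 3 alone gave 0 and 0 by limma on FPKM (unadjusted 1021 and 411) and on TPM without the repeat-like family (792 and 637). A mean of at least 10 FPKM (1544 and 52), all 21 libraries in 1 model (1327 and 56), a trended robust fit (1400 and 49) and a 4-fold threshold (1596 and 61) stayed within 1.5 times. Leaving out 1 library gave 727 (without granulosa replicate 2) to 2780 (without oocyte replicate 3) genes higher in oocytes and 20 (without granulosa replicate 1) to 76 (without granulosa replicate 2) higher in granulosa cells. With the replicate block the counts were 1939 and 89. Deviations of same-numbered libraries from their group means had correlations of -0.13, -0.05 and -0.05. With 3 libraries per group these values cannot tell whether same-numbered libraries share an animal, and the animals are not given. Of 357 named genes tested, no gene called on FPKM or under the alternative changed direction in these settings. Of 93 named genes called higher in oocytes and 23 called higher in granulosa cells, 74 and 11 kept the call whichever library was left out. For the test of transplantation, 0 positive and 0 negative calls became 43 and 3 after quantile normalization and 44 and 3394 at an unadjusted p, and ranged from 0 to 88 and from 0 to 8679 with 1 library left out. It gave 0 and 0 with the replicate block. The causes were not tested. Depth limits low genes in granulosa libraries.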
